A study of Homo sapiens with 30 samples.

Results

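Aminoacyl-tRNA synthetases are the enzymes that join each amino acid to its transfer RNA, so that the ribosome can read a codon as the matching residue. Most cells keep separate enzymes for the cytosol and for the mitochondrion, all encoded in the nucleus, and several cytosolic enzymes are held together in the multi-synthetase complex. Cytosolic synthetase genes are well known targets of the stress transcription factor ATF4, and melanoma cells, like other growing cells, use these enzymes for continuous protein synthesis. The 35 synthetase genes described here were taken by symbol from a list of 19 cytosolic and 16 mitochondrial enzymes. All 35 were among the 16009 genes of the deposited table. The list was drawn up with earlier results of these data known. GARS1 and KARS1 encode the cytosolic and the mitochondrial form of their enzyme from a single gene and are counted with the cytosolic enzymes.

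MEL624 is a human melanoma cell line. The cells were either PCIF1 knockouts (KO) or controls, which were wild type and carried a random sgRNA, grown in the same standard medium, and the labels name no treatment. PCIF1 is the enzyme that methylates an adenosine at the first transcribed base of an mRNA, next to the cap, which gives m6Am. In m6Am-Exo-Seq, fragments from capped 5′ ends are kept and part of them is pulled down with an m6A antibody, here mouse clone 212B11 (antibody 4), which also binds m6Am. The 12 libraries used form 4 groups of 3, namely KO immunoprecipitation (IP), control IP, KO input and control input, and the other 18 libraries of the series, which tried 8 antibodies with 1 library each, were not analysed here. The 3 samples of a group are biological replicates by the design text. It leaves unsaid how many clones the 3 KO samples stand for, so that KO and clone cannot be told apart. Values are CPM, reads at the start region of a gene scaled by a size per library, and enrichment is log2 IP minus log2 input. The deposited values imply a size that is not the plain sum of these reads. It was 4293886 for control IP library 1, with 4625190 reads, and 4364755 for control input library 2, with 4094070 reads. The part of this in the differences between IP and input was not tested. Errors marked SE are standard errors of the fitted value.

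The KO IPs were the shallowest libraries, with 1753164 to 2177874 reads over the listed genes, against 4035815 to 4625190 in control IPs, 2836120 to 3544669 in KO inputs and 3232562 to 4094070 in control inputs. Small nucleolar RNAs took 4.71% ± 0.158 of the reads in KO IPs and 1.60% ± 0.092 in control IPs, against 4.32% ± 0.171 in KO inputs and 4.55% ± 0.352 in control inputs (SD, n = 3 each), and the part of this in the differences between IPs was not tested. PCIF1 itself gave 70.4, 78.0 and 77.1 CPM in KO inputs, against 57.8, 52.5 and 49.4 CPM in control inputs (log2 difference 0.50 ± 0.14 SE, limma adjusted p = 0.0229). Fragments at a transcript start need not cover the edited part of a gene, so these reads check nothing about the labels. Of 8 melanocyte markers MITF alone was found in the table, with 3 to 5.80 CPM in KO IPs, 11.5 to 12.9 CPM in control IPs, 9.17 to 10.7 CPM in KO inputs and 8.25 to 14 CPM in control inputs. Of 5 leukocyte markers CD68 alone was found, with 108 to 131 CPM in KO IPs, 243 to 266 CPM in control IPs, 91 to 144 CPM in KO inputs and 145 to 152 CPM in control inputs, and of 13 keratinocyte, fibroblast and endothelial markers none. The part of these in the results was not tested.

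The start sequences are shown first because an adenosine at the first base is what PCIF1 can methylate. Each run holds 50 bases before the annotated start and 10 bases from the start on, 5′ to 3′ on the strand of the gene, from RefSeq (GRCh38.p14), with the first base of the GENCODE 44 main transcript in capitals, so that the last 10 bases belong to the first exon. MARS1, FARSA, RARS1 and EARS2 are shown because they start with A and were less enriched in the KO. KARS1 and HARS1 start with A and were enriched in both genotypes. EPRS1, QARS1 and SARS2 start with another base, and their enrichment also differed between the genotypes.
MARS1: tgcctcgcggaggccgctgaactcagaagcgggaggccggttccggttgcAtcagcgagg
FARSA: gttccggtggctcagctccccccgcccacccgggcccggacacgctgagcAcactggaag
RARS1: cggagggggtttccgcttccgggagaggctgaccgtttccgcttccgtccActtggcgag
EARS2: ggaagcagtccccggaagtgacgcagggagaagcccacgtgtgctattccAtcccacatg
KARS1: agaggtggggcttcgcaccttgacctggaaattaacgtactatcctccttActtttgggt
HARS1: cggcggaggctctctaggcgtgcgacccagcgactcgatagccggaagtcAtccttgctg
EPRS1: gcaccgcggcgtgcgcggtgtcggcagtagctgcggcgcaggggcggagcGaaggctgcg
QARS1: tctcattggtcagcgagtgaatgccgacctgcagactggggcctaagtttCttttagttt
SARS2: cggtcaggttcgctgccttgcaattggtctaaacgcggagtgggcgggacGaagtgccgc

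These runs lie at chr12:57488018-57488077 on the plus strand (MARS1, ENSG00000166986), chr19:12933702-12933761 on the minus strand (FARSA, ENSG00000179115), chr5:168486421-168486480 on the plus strand (RARS1) and chr16:23557341-23557400 on the minus strand (EARS2, ENSG00000103356). The others are all on the minus strand, at chr16:75647656-75647715 (KARS1, ENSG00000065427), chr5:140691361-140691420 (HARS1), chr1:220046496-220046555 (EPRS1), chr3:49104748-49104807 (QARS1) and chr19:38930754-38930813 (SARS2). By GENCODE 44, 17 of the 35 genes start with A, 11 of the 19 cytosolic and 6 of the 16 mitochondrial ones, and 13 of the 17 have a C just before the A. Of 12047 protein-coding genes in the table, 46.1% start with A. RefSeq held start windows for 30 of the 35 genes, and the windows of CARS2, EARS2, FARS2, SARS1, TARS1 and WARS1 include other starts that turn an A into another base or the reverse, so that the first base of these 6 is uncertain.

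A set of cytosolic start regions also shares a motif, which was chosen with earlier results of these data known. The core of the C/EBP-ATF response element, TTGCATCA, known as a binding sequence of ATF4, was found on either strand within 250 bases before to 50 bases after an annotated start in 6 of the 30 synthetase genes with a window (20.0%), against 75 of 10541 genes of the table (0.712%). The 6 genes are AARS1, CARS1, IARS1, MARS1, NARS1 and TARS1, all cytosolic and all on the list of ATF4 targets. Motif and list were both chosen for ATF4, so their overlap is no independent result. In CARS1 and MARS1 the motif spans the start, with its first letter at position -2 in CARS1 and -4 in MARS1 (1 is the annotated first base, and -1 the base before it). In IARS1 it lies before the start (first letter at -13) and in TARS1 just after the first base (first letter at 3). These 4 are printed with the motif in capitals.
CARS1: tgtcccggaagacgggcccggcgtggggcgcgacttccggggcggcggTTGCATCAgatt
IARS1: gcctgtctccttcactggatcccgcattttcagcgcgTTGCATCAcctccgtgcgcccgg
MARS1: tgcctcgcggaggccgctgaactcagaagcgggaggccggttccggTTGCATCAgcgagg
TARS1: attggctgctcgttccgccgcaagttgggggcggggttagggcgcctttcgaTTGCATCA

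The runs of CARS1 (chr11:3057414-3057473, minus strand), IARS1 (chr9:92293688-92293747, minus strand) and TARS1 (chr5:33440915-33440974, plus strand) come from the same table. In MARS1 the annotated first A is the A of the motif itself. The ETS core CCGGAAGT, on either strand, was found in 8 of the 30 genes (26.7%), against 1070 of 10541 (10.2%), and by their spelling the motifs can overlap by at most 1 letter. HARS1 and HARS2, whose starts lie 85 bases apart on opposite strands, hold it on both strands. Their windows overlap, so that these are the same stretches of the genome, counted for each gene. A match is a stretch of letters and not a measured site. On the opposite strand, within 200 bases of the start, TERF2IP lies beside KARS1 and ARHGAP9 beside MARS1, and reads of such neighbours can be told apart only if the counting used strand.

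The first comparison asked which start fragments control cells yielded more of after pull-down than before. Cytosolic synthetases rose more often than they fell, with 10 of 19 higher and 4 lower in the IP, whereas 0 of 16 mitochondrial synthetases were higher and 8 were lower, with the same counts at an unadjusted p under 0.05. Together this makes 10 higher and 12 lower of 35, beside 27.7% and 28.2% of all 16009 genes called higher and lower. The IP libraries lay wholly above the input libraries for 11 genes and wholly below them for 13, beside 66.5% of all genes without overlap in either direction. The median log2 difference was 0.77 for cytosolic and -0.46 for mitochondrial genes, against -0.01 over all genes. The gap between the medians, 1.23, was 1.18, 1.24 and 1.25 for the single IPs over the input mean. It was larger than the spread between IP libraries (SD 0.04), which leaves out the spread of the inputs.

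KARS1, the lysyl enzyme, was the most enriched. It gave 701, 723 and 735 CPM in control IPs, against 192, 166 and 167 CPM in control inputs, a log2 difference of 2.04 ± 0.11 SE (limma adjusted p = 4.18e-12). Every IP library lay above every input library. HARS1, the histidyl enzyme, gave 428, 443 and 407 CPM in control IPs, against 136, 129 and 132 CPM in control inputs, a difference of 1.69 ± 0.09 (limma adjusted p = 6.97e-12). MARS1, the methionyl enzyme of the multi-synthetase complex, gave 1955, 1788 and 1785 CPM in control IPs, against 687, 557 and 563 CPM in control inputs, a difference of 1.62 ± 0.11 (limma adjusted p = 2.05e-10). Neither of these genes had overlapping libraries. The other 7 cytosolic enzymes called higher were LARS1 (1.51), YARS1 (1.33), FARSA (1.30), the catalytic subunit of the phenylalanyl enzyme, AARS1 (1.07), SARS1 (0.88), RARS1 (0.87) and TARS1 (0.77).

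Mitochondrial synthetase starts were depleted from the control IPs or not called. IARS2, the mitochondrial isoleucyl enzyme, gave 60.2, 56.0 and 60.5 CPM in control IPs, against 170, 205 and 199 CPM in control inputs, a log2 difference of -1.70 ± 0.13 SE (limma adjusted p = 1.27e-09). AARS2, the alanyl enzyme, gave 8.46, 5.59 and 8.45 CPM in control IPs, against 25.3, 21.8 and 22.3 CPM in control inputs (-1.65 ± 0.23, limma adjusted p = 3.50e-06). SARS2, the seryl enzyme, gave 34.1, 30.5 and 39.9 CPM in control IPs, against 111, 101 and 108 CPM in control inputs (-1.63 ± 0.15, limma adjusted p = 1.23e-08). In all of these, no IP library reached the lowest input library. HARS2 (-1.23), VARS2 (-0.96), RARS2 (-0.64), CARS2 (-0.48) and NARS2 (-0.42) made up the 8. Among cytosolic enzymes, EPRS1 (-0.94), which joins the glutamyl and prolyl activities in 1 protein, QARS1 (-0.77), FARSB (-0.77), the partner subunit of FARSA, and GARS1 (-0.42) were lower. The subunits of the phenylalanyl enzyme therefore stood on opposite sides of the input.

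These directions are relative to the deposited scaling. When the libraries were centred on 77 ribosomal protein mRNAs, the median of all genes in this comparison moved to 1.16, and 27 synthetase genes were higher and 2 lower, with 17 and 0 among the 19 cytosolic and 10 and 2 among the 16 mitochondrial genes. Of all 16009 genes, 10172 were higher and 951 lower under that centring. GARS1, QARS1, CARS2, NARS2 and RARS2 were then called higher, and IARS2 (-0.52) and SARS2 (-0.45) were the genes still called lower. The gap between cytosolic and mitochondrial medians does not depend on such a shift. The calls of FARSB and NARS2 were each lost when 2 single libraries were left out in turn, control input library 1 for both, control IP library 2 for FARSB and control IP library 1 for NARS2.

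In KO cells the medians of the compartments still lay apart, though their genes overlapped. Log2 differences ran from -1.74 to 2.18 in cytosolic genes and from -2.48 to 1.20 in mitochondrial genes. Of 19 cytosolic synthetases 8 were higher and 5 lower in the KO IP than in the KO input, and of 16 mitochondrial ones 1 was higher and 11 lower. The 9 higher and 16 lower in all stand beside 28.4% and 31% of all genes, and 25 genes had no overlap between IP and input libraries, beside 61.3% of all genes. The medians were 0.21 and -0.59, against -0.07 over all genes, and the gap of 0.80 was 0.97, 0.70 and 0.75 by IP library (SD 0.14). Without MARS2, SARS2 and VARS2, whose starts lie near or in another gene on the same strand, the gap was 1.11.

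KARS1 again led, with 895, 816 and 720 CPM in KO IPs, against 190, 194 and 152 CPM in KO inputs (log2 difference 2.18 ± 0.11 SE, limma adjusted p = 1.48e-12). HARS1 gave 427, 415 and 364 CPM in KO IPs, against 147, 136 and 126 CPM in KO inputs (1.56 ± 0.09, limma adjusted p = 1.89e-11). SARS1, the seryl enzyme that also starts the charging of selenocysteine tRNA, gave 2306, 2281 and 1689 CPM in KO IPs, against 922, 928 and 750 CPM in KO inputs (1.26 ± 0.12, limma adjusted p = 3.41e-08). All 3 kept their IP libraries above their input libraries. The lowest values belonged to mitochondrial enzymes with few reads in the KO IPs. AARS2 had 9, 8 and 9 reads there, or 4.49, 3.97 and 5.23 CPM, against 27.3, 17.9 and 22.5 CPM in KO inputs (-2.30 ± 0.23, limma adjusted p = 3.79e-08). EARS2, the glutamyl enzyme, had 9, 9 and 7 reads, or 4.49, 4.46 and 4.08 CPM, against 21.9, 15.2 and 18.6 CPM in KO inputs (-2.08 ± 0.23, limma adjusted p = 1.52e-07). PARS2, the prolyl enzyme, had only 3, 3 and 0 reads in KO IPs, against 11, 13 and 8 reads in KO inputs. Its difference of -2.48 ± 0.81 (limma adjusted p = 0.0129) rested on KO IP library 3 and was -1.03 without it (limma adjusted p = 0.0628).

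Set side by side, 7 cytosolic enzymes (AARS1, HARS1, KARS1, LARS1, SARS1, TARS1 and YARS1) were called higher in the IP in both genotypes. FARSA, MARS1 and RARS1 were called higher in control cells and not called in KO cells on the deposited scale. MARS1 and RARS1 were called higher in KO cells too with the median gene as the centre (0.31 and 0.28), MARS1 also without KO IP library 3, KO input library 1 or KO input library 2, and all 3 with ribosomal protein mRNAs as the centre (0.65 for FARSA, 0.88 for MARS1 and 0.85 for RARS1). NARS1 and LARS2, the mitochondrial leucyl enzyme, were called higher in KO cells and not in control cells. The call of TARS1 in KO cells (0.28) was lost without KO IP library 1 and without KO input library 2 or 3. With ribosomal protein mRNAs as the centre, KO cells had 17 higher and 6 lower of 35 and the median of all genes was 0.57. Under that centring 7467 of all 16009 genes were higher and 2303 lower. GARS1 (-0.26 on the deposited scale) was then called higher, and its call as lower was also lost without KO IP library 3 or KO input library 1. Calls of MARS2, YARS2 and FARSB as lower in KO cells were lost without several single libraries, among them KO input libraries 1 and 2.

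**Figure D1:**
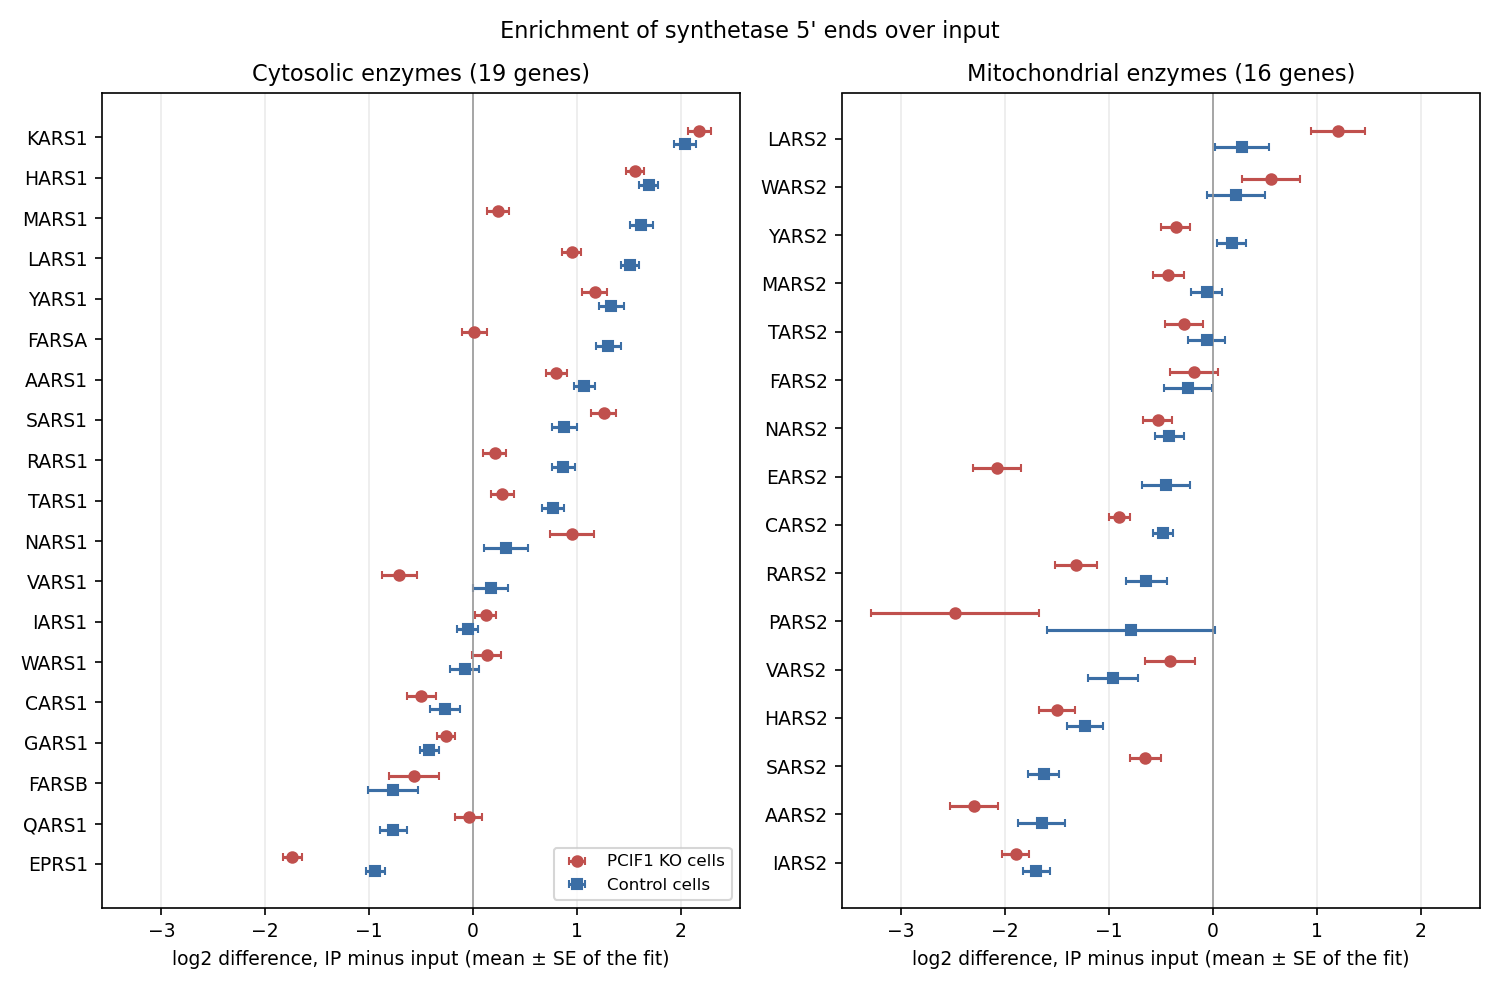
Log2 enrichment (IP minus input, x axis) of each synthetase gene in PCIF1 KO cells (red circles) and control cells (blue squares), with the SE of the fit as bars. Cytosolic genes reach 2.18 in KO cells and 2.04 in control cells (KARS1, in both), while mitochondrial genes lie at or below 1.20 in KO cells and at or below 0.28 in control cells.

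The main question of the design is where enrichment differed between KO and control cells, tested as an interaction (KO enrichment minus control enrichment). Among synthetases, 9 were less enriched in the KO and 2 more enriched, beside 15.8% and 13% of all genes called lower and higher. The enrichment values of the KO libraries did not overlap those of the control libraries for 20 of the 35 genes, beside 53.2% of all genes. The 9 were 7 cytosolic genes, FARSA, LARS1, MARS1, RARS1, VARS1, EPRS1 and TARS1, and 2 mitochondrial genes, CARS2 and EARS2. The 2 were QARS1 and SARS2. The median was -0.16 for cytosolic and -0.24 for mitochondrial genes, against -0.06 over all genes and -0.18 over protein-coding genes. YARS2, the mitochondrial tyrosyl enzyme, was just short of the threshold (-0.53, limma adjusted p = 0.0524) and was called lower with a filter on reads, with log2 of CPM plus 1 and with the median gene as the centre. The gap of 0.08 between compartments was within the spread between IP libraries (SD 0.15), with the inputs held at their means. It was 0.24 without KO input library 1.

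MARS1 gave 751, 767 and 670 CPM in KO IPs, against 1955, 1788 and 1785 CPM in control IPs, while its inputs held 678, 669 and 515 CPM in KO cells and 687, 557 and 563 CPM in control cells. Its enrichment was 0.24 in KO cells and 1.62 in control cells, a difference of -1.38 ± 0.16 SE (limma adjusted p = 2.68e-06). FARSA gave 506, 486 and 372 CPM in KO IPs, against 1246, 1123 and 1098 CPM in control IPs, with 511, 463 and 381 CPM in KO inputs and 511, 456 and 437 CPM in control inputs. The KO IPs of FARSA thus lay in the range of the inputs, and the difference of enrichment was -1.30 ± 0.17 (limma adjusted p = 1.27e-05). EARS2 gave 4.49, 4.46 and 4.08 CPM in KO IPs, against 15.4, 13.5 and 11.2 CPM in control IPs, with inputs of 15.2 to 21.9 CPM in KO cells and 15.4 to 24.8 CPM in control cells. Its difference was the largest of those called, at -1.63 ± 0.32 (limma adjusted p = 7.31e-04), and rests on 7 to 9 reads per KO IP.

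LARS1, the leucyl enzyme that also takes part in leucine sensing, stayed enriched in the KO but less so. It gave 291, 311 and 267 CPM in KO IPs, against 467, 526 and 518 CPM in control IPs, with enrichment of 0.95 in KO cells and 1.51 in control cells (difference -0.56 ± 0.12, limma adjusted p = 0.00178). VARS1, the valyl enzyme (-0.88), EPRS1 (-0.80) and RARS1, the arginyl enzyme (-0.66), were lower as well, and TARS1 (-0.48) and CARS2 (-0.43) were the smallest calls. EPRS1 and CARS2 were already depleted in control cells (-0.94 and -0.48) and more so in KO cells (-1.74 and -0.90). VARS1 (0.17) and EARS2 (-0.45) were not called in control cells. Leaving out single libraries ended the call of TARS1 for 7 of the 12 libraries and of CARS2 for 8 of the 12. For TARS1 these were KO IP libraries 2 and 3, KO input library 1, control IP libraries 1 and 2 and control input libraries 2 and 3. For CARS2 they were KO IP library 3, KO input libraries 1 and 3, control IP libraries 1 and 3 and the 3 control inputs. CARS2 was not lower in KO IPs than in control IPs (0.14, limma adjusted p = 0.264). Its inputs were higher in the KO (0.57), so that its difference of enrichment comes from the inputs.

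The opposite direction was seen in genes that were depleted in control cells. SARS2 gave 53.5, 71.2 and 49.3 CPM in KO IPs, against 34.1, 30.5 and 39.9 CPM in control IPs, with 92.2, 106 and 73.8 CPM in KO inputs and 111, 101 and 108 CPM in control inputs. Its enrichment was -0.65 in KO cells and -1.63 in control cells, so that it was less depleted in the KO by 0.98 ± 0.21 (limma adjusted p = 0.00148). SARS2 shares its start region with MRPS12, a mitochondrial ribosomal protein gene on the opposite strand, and lies near another gene on its own strand, so that its reads are uncertain. QARS1, the glutaminyl enzyme, gave 160, 152 and 133 CPM in KO IPs, against 132, 109 and 118 CPM in control IPs, with 170, 178 and 118 CPM in KO inputs and 199, 190 and 224 CPM in control inputs. The KO IP libraries of QARS1 all lay above its control IP libraries by a small margin, and the difference of enrichment was 0.73 ± 0.19 (limma adjusted p = 0.00593). Between the IPs QARS1 differed by 0.31 (limma adjusted p = 0.058, not called). Between the inputs it differed by -0.42, the larger part of the difference of enrichment.

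With ribosomal protein mRNAs as the centre, the median of all genes in this comparison was -0.59, and 0 of the 35 genes were higher and 23 lower, 13 of 19 cytosolic and 10 of 16 mitochondrial. Of all 16009 genes, 844 were higher and 5897 lower under that centring. QARS1 (0.19) and SARS2 (0.44) were then not called, while the other 9 calls were kept. KARS1 and HARS1, whose enrichment was called in both genotypes and did not differ beyond the test on the deposited scale (0.14 ± 0.15 and -0.13 ± 0.13), were called lower in the KO under that centring.

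**Figure D2:**
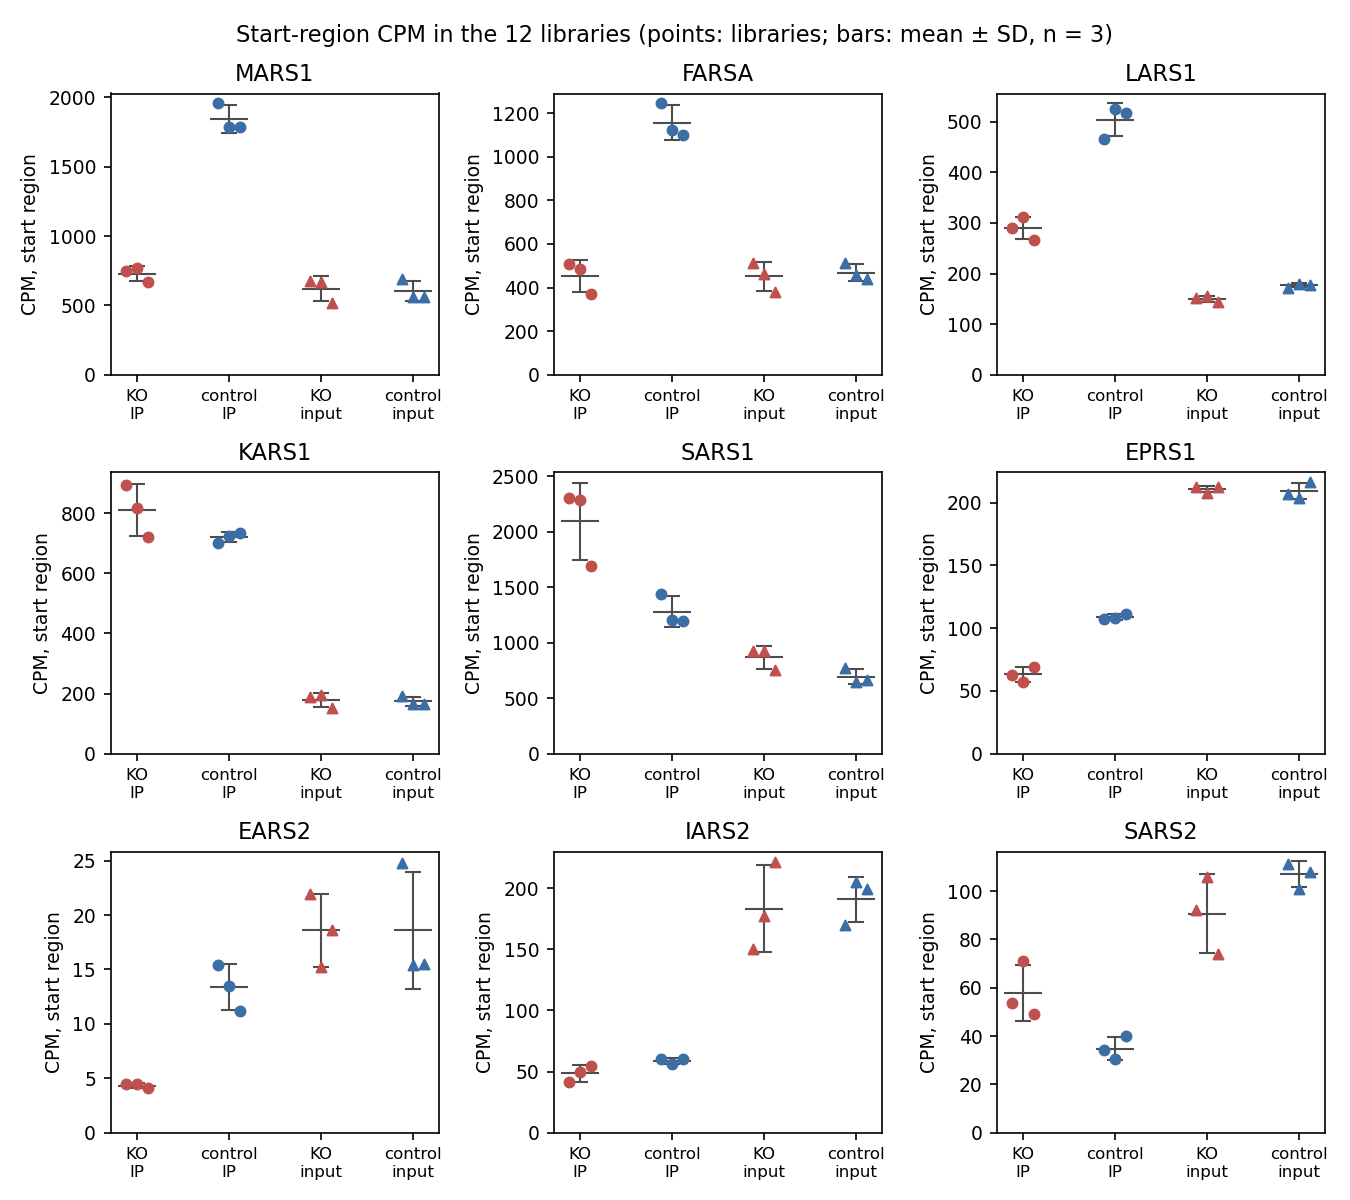
Start-region CPM (y axis, linear from 0) of 9 synthetase genes in KO IP, control IP, KO input and control input libraries, with points for libraries and bars for mean ± SD (n = 3). The KO IPs of MARS1 (670 to 767 CPM) and FARSA (372 to 506 CPM) lie far below the control IPs (1785 to 1955 and 1098 to 1246 CPM), those of KARS1 (720 to 895 CPM) do not, and those of SARS2 (49.3 to 71.2 CPM) lie above the control IPs (30.5 to 39.9 CPM).

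The annotated first base was set beside these values. Of 17 synthetases that start with A, 7 were less enriched in the KO and 0 more enriched by limma (1 more enriched at an unadjusted p under 0.05), with a median difference of -0.38. Among these 7, CARS2 was not lower between the IPs (0.14, not called) and was higher in KO inputs (0.57). Of 18 that start with G, C or T, 2 were less and 2 more enriched, with a median of 0.02. This difference between first bases was not tested within the synthetases. The protein-coding genes of the table had 1531 lower and 346 higher of 5549 that start with A (median -0.37) and 872 lower and 879 higher of 6498 that start with another base (median -0.02). Under centring on ribosomal protein mRNAs the synthetase medians were -0.91 for A and -0.51 for the other bases, with 14 of 17 and 9 of 18 called lower, beside 5897 of all 16009 genes. The first base of TARS1 and EPRS1, which were less enriched in the KO, is annotated as G, and TARS1 is among the genes with another start in RefSeq. The same doubt holds for CARS2 and EARS2, which have RefSeq starts with A and with G, so that 5 of the 7 genes, all cytosolic, have no other first base in the windows found (VARS1 and LARS1 have no window).

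Enrichment in control cells by first base was read in each compartment. Of 11 cytosolic genes that start with A, 8 were called higher and 0 lower in the control IP, with a median of 1.30. The 8 that start with another base had 2 higher and 4 lower (median -0.35). These 2 were SARS1 and TARS1, which also have a RefSeq start with A. Of 6 mitochondrial genes that start with A, 0 were higher and 2 lower, with a median of -0.34. The other 10 mitochondrial genes had 0 higher and 6 lower (median -0.71). Among the genes counted with A, WARS1, CARS2, EARS2 and FARS2 also have a RefSeq start with G. Of protein-coding genes that start with A, 41% were higher and 17.7% lower (median 0.32), and of those with another first base 23.1% were higher and 37.6% lower (median -0.23). In KO cells, cytosolic genes that start with A still had 6 higher and 1 lower of 11 (median 0.80), beside 31.1% higher and 31.1% lower of protein-coding genes that start with A (median -0.03). KARS1, HARS1, YARS1, AARS1 and LARS1 were among the 6, with enrichment of 2.18, 1.56, 1.17, 0.80 and 0.95 in KO cells.

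**Figure D3:**
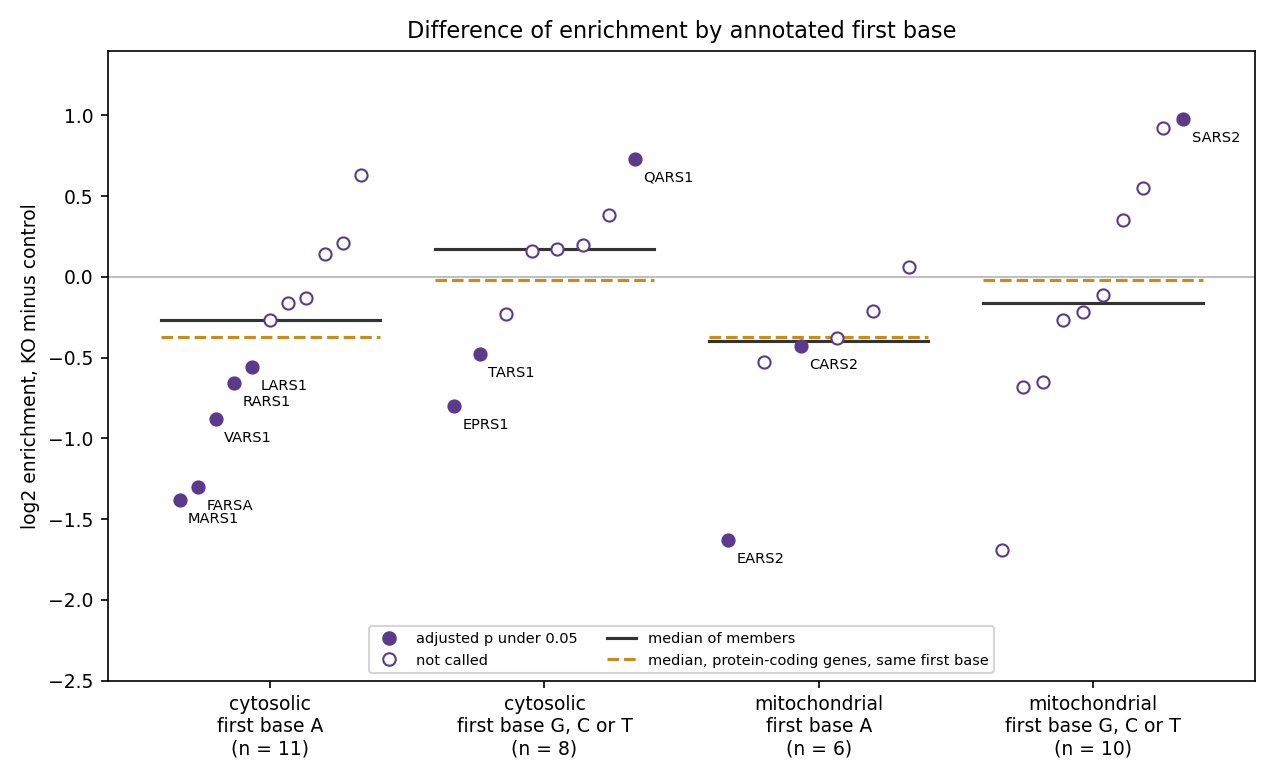
Difference of log2 enrichment, KO minus control (y axis), of each synthetase gene by compartment and annotated first base, with filled points for genes called at an adjusted p under 0.05. Solid lines give the medians of the synthetases and dashed lines those of protein-coding genes with the same first base, and the 7 called genes that start with A by GENCODE lie between -1.63 (EARS2) and -0.43 (CARS2), both of which also have a RefSeq start with G.

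The 7 enzymes of the multi-synthetase complex differed among themselves. In the interaction, LARS1, MARS1, RARS1 and EPRS1 were less enriched in the KO, QARS1 was more enriched, and IARS1 and KARS1 were not called (0.17 ± 0.14 and 0.14 ± 0.15), with a median of -0.56. Of the 12 cytosolic enzymes outside the complex, 3 were less enriched and 0 more, with a median of -0.15. Over all genes, 15.8% were called less enriched and 13% more, and over protein-coding genes 19.9% and 10.2%. The difference between enzymes inside and outside the complex was not tested. EEF1E1 and AIMP2, scaffold proteins of the complex, had differences of -0.06 ± 0.16 (limma adjusted p = 0.816) and -0.60 ± 0.20 (limma adjusted p = 0.0319), and AIMP1, the third scaffold, was not called (-0.11 ± 0.45). By catalytic fold, 7 of 19 class I and 2 of 16 class II enzymes were less enriched in the KO, beside 15.8% of all genes. Their medians were -0.38 and -0.12, and this difference between the classes was not tested.

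Setting the IPs against each other without the inputs gave 6 synthetases higher and 15 lower in KO IPs than in control IPs, beside 23% and 26% of all genes, and 22 genes had no overlap between the IPs, beside 54.6% of all genes. SARS2 (0.73 ± 0.15, limma adjusted p = 4.61e-04) and SARS1 (0.70 ± 0.12, limma adjusted p = 1.11e-04) were the highest, and SARS1 gave 2306, 2281 and 1689 CPM in KO IPs, against 1440, 1201 and 1197 CPM in control IPs. NARS1, the asparaginyl enzyme, gave 14.3, 19.6 and 20.7 CPM in KO IPs, against 13.4, 11.4 and 10.2 CPM in control IPs (0.63 ± 0.21, limma adjusted p = 0.0161). Its call was lost without KO IP library 2, KO IP library 3 or control IP library 3. EARS2 (-1.61 ± 0.23, limma adjusted p = 8.83e-06), FARSA (-1.36 ± 0.12, limma adjusted p = 2.37e-08) and MARS1 (-1.34 ± 0.11, limma adjusted p = 1.00e-08) were the lowest, with the libraries given above. Of the 7 complex enzymes 0 were higher by limma (1 at an unadjusted p under 0.05) and 4 lower. Under the ribosomal protein centring 0 were higher and 23 lower of 35, with the median of all genes at -0.54, so the 6 higher values are relative to the deposited scaling. Of all 16009 genes, 1666 were higher and 7438 lower under that centring.

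The inputs show the level of capped start fragments without the antibody. Only 3 of the 35 synthetases were called between KO and control inputs, 2 higher and 1 lower, beside 5.56% and 5.67% of all genes. Input libraries did not overlap for 7 genes, beside 31.7% of all genes, and the medians were 0.02 for cytosolic and -0.12 for mitochondrial genes. In bulk libraries, fewer cells that use a gene and less RNA per cell cannot be told apart. MARS2, the mitochondrial methionyl enzyme, gave 34.8, 36.1 and 30.3 CPM in KO inputs, against 21.3, 17.9 and 16.4 CPM in control inputs (0.87 ± 0.15 SE, limma adjusted p = 8.53e-04), and its start lies near another gene on the same strand. CARS2, the mitochondrial cysteinyl enzyme, gave 189, 157 and 187 CPM in KO inputs, against 118, 120 and 119 CPM in control inputs (0.57 ± 0.10, limma adjusted p = 9.11e-04). Neither gene had overlapping input libraries. QARS1 gave 170, 178 and 118 CPM in KO inputs, against 199, 190 and 224 CPM in control inputs (-0.42 ± 0.13, limma adjusted p = 0.0450). Its call was lost when any of the 6 control libraries, KO IP library 2 or KO input library 3 was left out, and the difference was -0.23 without KO input library 3.

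Of the 12 cytosolic genes listed as ATF4 targets, limma called 0 between the inputs in either direction, and 3 had an unadjusted p under 0.05 (SARS1 and GARS1 above 0, LARS1 below it). Over all genes, 3796 of 16009 had an unadjusted p under 0.05 by limma, a similar share. The median of the 12 genes was 0.06 with a range of -0.23 to 0.32. SARS1 had the highest of these values (0.32 ± 0.12, limma adjusted p = 0.113) and its libraries overlapped. It was called higher with a replicate block, and without KO IP library 3 or KO input library 3. All cytosolic synthetases together took 0.528% ± 0.0419 of the reads in KO inputs and 0.502% ± 0.0255 in control inputs, a difference within the spread between libraries. They took 0.732% ± 0.0573 in KO IPs and 0.827% ± 0.0317 in control IPs. Mitochondrial synthetases took 0.0375% ± 0.00191 in KO IPs and 0.0386% ± 0.00164 in control IPs, against 0.0774% ± 0.00167 in KO inputs and 0.0753% ± 8.31e-04 in control inputs (SD, n = 3 each).

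**Figure D4:**
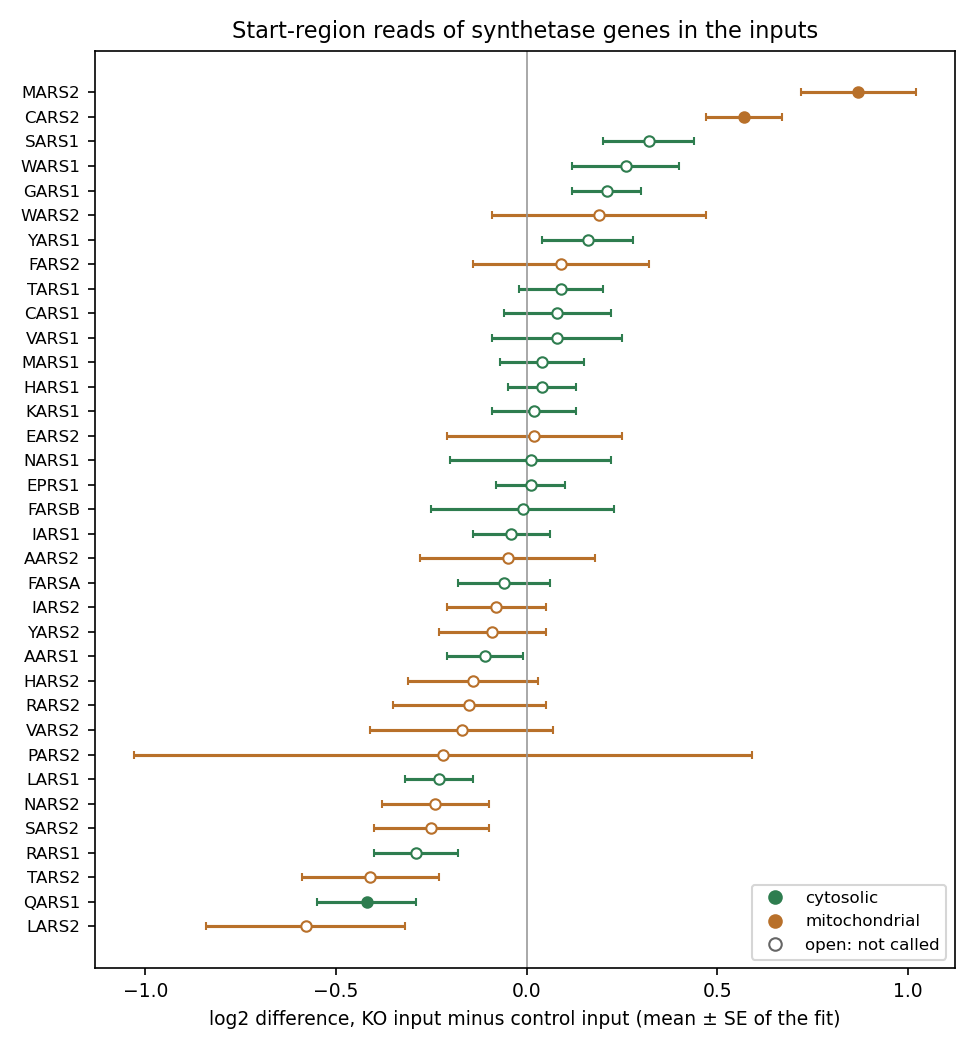
Log2 difference of start-region reads, KO input minus control input (x axis, with the SE of the fit), of the 35 synthetase genes, cytosolic in green and mitochondrial in orange, with filled points for called genes. MARS2 (0.87) and CARS2 (0.57) lie above 0 and QARS1 (-0.42) below it, and the other 32 are not called.

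Other genes of tRNA charging were measured beside the enzymes, 63 of 66 listed. In the interaction, 18 of the 63 (28.6%) were less enriched and 6 (9.52%) more enriched in the KO, beside 19.9% and 10.2% of protein-coding genes, with a median of -0.36. TRIT1, which adds isopentenyl groups to tRNA, was less enriched by -1.32 ± 0.17 (limma adjusted p = 9.42e-06). EEF1A1 and EEF1D, of the factor that brings charged tRNA to the ribosome, had differences of 1.67 ± 0.19 and 1.38 ± 0.17 (limma adjusted p = 2.43e-06 and 5.87e-06), and EEF1A1 has many near-identical copies that can share its reads. In control cells 21 (33.3%) were higher and 16 (25.4%) lower in the IP, shares near the 27.7% and 28.2% of all genes. Named from these were PUS3, a pseudouridine synthase (2.25 ± 0.16, limma adjusted p = 3.17e-10), with PTRHD1 (-2.56 ± 0.13, limma adjusted p = 5.64e-12) and EEF1A1 (-2.03 ± 0.13, limma adjusted p = 1.08e-10) at the other end. In KO cells 13 (20.6%) were higher and 29 (46%) lower, beside 28.4% and 31% of all genes, with PUS3 at 3.46 ± 0.16 (limma adjusted p = 8.08e-13), TUFM, the mitochondrial elongation factor, at -1.60 ± 0.10 (limma adjusted p = 5.69e-11) and PTRHD1 at -2.14 ± 0.13 (limma adjusted p = 5.84e-11). Between inputs 2 were higher and 2 lower (3.17% each), beside 5.56% and 5.67% of all genes, among them HSD17B10, a subunit of mitochondrial RNase P (0.69 ± 0.16, limma adjusted p = 0.00664), and the tRNA splicing gene TSEN15 (0.39 ± 0.08, limma adjusted p = 0.00379), while RPP40 of nuclear RNase P was lower (-0.54 ± 0.16, limma adjusted p = 0.0340). The ribosomal protein centring gave 48 higher and 4 lower of the 63 in control cells, 30 and 15 in KO cells, and 4 higher and 38 lower in the interaction. Over all 16009 genes it gave 10172 and 951, 7467 and 2303, and 844 and 5897, in the same order.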

How the data were processed

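The authors deposited 1 table of log2 CPM values for the start regions of 16009 genes, 1 column per library, which carries the numbers 1 to 3 where the labels use letters, so columns were assigned to groups only. Build hg38 and, among other tools, featureCounts, HISAT2 2.0.4 and edgeR 3.12.1 are named, per the submitters' processing notes. Not given in the sources used here are the window, annotation, strand setting and filter, so reads of neighbouring and antisense genes are uncertain, and of the 35 genes 3 have a neighbour on the same strand and 13 on the opposite strand within 200 bases of the start. Per the labels' protocols, libraries came from purified mRNA with a directional kit. Whole reads recovered from the deposited values (100% within 0.01) gave the depths.

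The 12 libraries were fitted together with limma 3.58.1 (R 4.3.3, a mean per group, trended variance). Calls are at an adjusted p under 0.05 (Benjamini-Hochberg, over all 16009 genes), and p-values reflect only how much these samples vary. A library with 0 reads is listed at a floor, which can move the log2 difference of a gene with few reads in either direction. Alternatives were a filter of 10 reads in 3 libraries, log2 of CPM plus 1, centring on the median gene or on 77 ribosomal protein mRNAs, a replicate block, the libraries of the contrast alone, and leaving out each library. Starts and first bases came from GENCODE 44 on hg38.

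The members, gene lists, motifs and contrasts were chosen with earlier results of these data known. Values in every library were given for up to 3 genes each way per contrast with the largest called difference and no overlap. Log2 differences were given for up to 3 other tRNA genes per contrast with the smallest adjusted p and for the 3 scaffold genes. LARS1 was added after its values were seen.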

Additional observations from a re-analysis of the deposited data

Results flagged for a closer look

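For 11 synthetase genes, enrichment over input differed between KO and control cells by the interaction term (limma adjusted p under 0.05 over all genes). These are 2 higher and 9 lower of 35, beside 13% and 15.8% of all genes. Less enriched in the KO were EARS2 by -1.63, MARS1 by -1.38, FARSA by -1.30, VARS1 by -0.88, EPRS1 by -0.80, RARS1 by -0.66, LARS1 by -0.56, TARS1 by -0.48 and CARS2 by -0.43 on the log2 scale. EPRS1 and CARS2 were depleted in both genotypes, so that for them less enriched means more depleted. QARS1 by 0.73 and SARS2 by 0.98 were more enriched in the KO on that scale, which also means less depleted. The KO IPs of EARS2 hold 7 to 9 reads each. The calls of TARS1 and CARS2 were lost without several single libraries. Those of QARS1 and SARS2 were lost with ribosomal protein mRNAs as the centre.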

How the results depend on the processing

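Centring libraries on ribosomal protein mRNAs changed the counts most. It gave 27 higher and 2 lower in control enrichment, 17 and 6 in KO enrichment, 0 and 23 in the interaction, 0 lower between inputs, and 0 and 23 between IPs. Over all 16009 genes it gave 10172 and 951, 7467 and 2303, 844 and 5897, 825 and 666, and 1666 and 7438, in the same order. Centring on the median gene also gave 0 lower between inputs. The cause was not tested. In the interaction, the replicate block gave 4 higher genes, against 2, with SARS1 and LARS2 added, and 10 lower, against 9, with YARS2 added. It also called SARS1 higher between inputs and MARS1 higher in KO enrichment. By the number of the column, a library correlated best with its own number in 28 of 36 comparisons, a hint from the data that numbers may pair libraries. Correlations of the same number were -0.11 to 0.29, at or below 0.10 in each pair of number 2, so the rule that every pair exceed 0.10 was not met and the fit without the block was kept.

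Leaving out single libraries gave 0 to 1 lower between inputs, and gaps between the cytosolic and the mitochondrial median of 1.21 to 1.30 in control enrichment, 0.68 to 0.87 in KO enrichment and 0.02 to 0.24 in the interaction. The last is 0.24 without KO input library 1. Not counting genes with a neighbour on the same strand moved the gap in KO enrichment to 1.11. For the genes with values in every library, chosen by contrast, 441 values under alternatives kept their direction and side of the threshold and 22 kept the direction without passing it, and none turned. Among all 35 genes, 5 calls in control enrichment (GARS1, QARS1, CARS2, NARS2 and RARS2) and 1 in KO enrichment (GARS1) turned under the ribosomal protein centring. The planned edgeR and DESeq2 models on recovered reads are not reported, because the deposited values are log2 CPM and not counts. Depth limits PARS2, AARS2 and EARS2, with under 10 reads per KO IP.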
